A study of Mus musculus with 12 samples.

Results

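The genes described here encode the chains of the collagens and laminins, the 2 protein families that form most of the scaffold of the extracellular matrix. There were 54 of them, 44 collagen and 10 laminin chain genes, among the 19938 genes named on the array. Genes were taken by symbol alone, as every name of the form Col-number-a-number or Lama, Lamb or Lamc with a number, with no rule on measured values. The list itself was chosen with earlier results of these data known. Where a gene had more than 1 probe set, the one with the highest mean signal stands for it. All 54 genes passed the filter on dim probe sets, a signal above the 40th percentile of the array in at least 3 of the 12 arrays, as did 14195 genes in all. Col12a1 lay above it on 3 arrays and Lama3 on 6.

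RNA came from the forebrain of mice at postnatal day 0, in 4 genotypes with 3 biological replicates each and 1 array per replicate. GBS animals (hGFAP-cre::Ctnnb1(ex3)Fl/+SmoM2Fl/+) carried Cre and both conditional alleles, and the labels call their tissue tumor. GS animals (hGFAP-cre::SmoM2Fl/+) carried Cre and the SmoM2 allele, an activated Smoothened that turns on sonic hedgehog signalling. GB animals (hGFAP-cre::Ctnnb1(ex3)Fl/+) carried Cre and the Ctnnb1 allele, which makes a stabilised beta-catenin once Cre has removed an exon. Control animals (Ctnnb1(ex3)Fl/+SmoM2Fl/+) carried both conditional alleles and no Cre. The human GFAP promoter drives Cre in radial glia and their descendants, while the vessels and meninges that make much of the brain's collagen and laminin have other origins. Because Control was the 1 genotype without Cre, an effect of Cre itself cannot be told apart from that of the alleles in any comparison with Control. The study modelled ETMR, a brain tumor of early childhood, and the comparisons ask how each allele alone and both together change forebrain RNA.

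Every collagen molecule is a triple helix of alpha chains, and the genes differ in what the helices build. Collagens I, II, III, V and XI form fibrils, collagen IV forms the network of basement membranes, fibril-associated collagens coat fibrils, and other types form beaded filaments, anchoring fibrils or span the cell membrane. Laminins are heterotrimers of 1 alpha, 1 beta and 1 gamma chain that assemble into the sheet on which a basement membrane is built. In the developing forebrain, basement membranes lie under the meninges, where the endfeet of radial glia attach, and around blood vessels.

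Col4a1 and Col4a2 encode the chains of the most widespread collagen IV molecule and lie head to head. Their promoters are shown because the windows overlap, so that 1 stretch of DNA belongs to both. The windows, from RefSeq (GRCm38.p6), hold 300 bases around each annotated start, most of them upstream, 5′ to 3′ on the strand of the gene. Col4a1 occupies chr8:11312777-11313076 on the minus strand and Col4a2 chr8:11312555-11312854 on the plus strand. Capitals mark the 78 bases that both windows hold, as reverse complements of each other.
Col4a1: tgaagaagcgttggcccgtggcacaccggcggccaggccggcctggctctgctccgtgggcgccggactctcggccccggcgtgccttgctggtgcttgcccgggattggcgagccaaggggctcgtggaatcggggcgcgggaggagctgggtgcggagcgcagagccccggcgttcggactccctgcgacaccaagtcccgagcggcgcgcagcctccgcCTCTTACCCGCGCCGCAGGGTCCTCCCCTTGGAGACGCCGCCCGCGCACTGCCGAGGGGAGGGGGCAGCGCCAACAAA
Col4a2: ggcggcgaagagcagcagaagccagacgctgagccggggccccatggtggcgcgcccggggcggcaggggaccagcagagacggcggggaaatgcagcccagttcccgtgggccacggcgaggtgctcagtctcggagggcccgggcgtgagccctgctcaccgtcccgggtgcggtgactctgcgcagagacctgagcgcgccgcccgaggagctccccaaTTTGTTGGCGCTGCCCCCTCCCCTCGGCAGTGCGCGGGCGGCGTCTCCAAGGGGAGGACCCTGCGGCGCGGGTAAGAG
The Col4a1 window was 74.0% G and C, the Col4a2 window 73.7% and the shared stretch 73.1%. RefSeq promoter windows were found for 40 of the 54 genes, 44 windows in all. The letters CTTTGAT, a form of the site bound by TCF and LEF factors of the WNT pathway, occurred on either strand in 1 of these windows (Col9a2, 2.27%), against 3.73% of all 32851 mouse windows. The related letters CTTTGTT occurred in 2 (Col20a1 and Col28a1, 4.55%), against 5.85% of all windows, and GACCACCCA, the site bound by GLI factors of the hedgehog pathway, in 0, against 0.253% of all windows. These are matches of letters in short windows and say nothing about binding.

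The deposited values are RMA signals on a log2 scale, and the medians over all probe sets ran from 6.52 to 6.69 on the 12 arrays. Neuronal markers averaged 7.94 to 8.87 in GBS, 8.84 to 9.60 in GS, 7.85 to 9.21 in GB and 8.96 to 9.32 in Control. Markers of radial glia averaged 8.16 to 8.24 in GBS, 7.75 to 7.89 in GS, 7.40 to 7.78 in GB and 7.50 to 7.60 in Control. Olfactory and vomeronasal receptor genes, which serve smell and are not known for expression in forebrain tissue, gave a gauge of signal at the dim end. The median of the 208 of 1194 such genes that passed the filter was 6.38, 6.27 and 6.33 in the 3 GBS arrays, 6.32, 6.40 and 6.72 in GS, 6.56, 7.01 and 6.52 in GB, and 6.69, 6.66 and 6.84 in Control. GB replicate 2 thus had the highest receptor signal, and the GBS arrays all lay below the Control arrays. A receptor gene can pass the filter through the high arrays of 1 group, which favours genes that are low elsewhere, so medians and array overlaps over all 1194 are given as well. Xist, the RNA made from the inactive X chromosome of females, was above 8 in replicates 2 and 3 of GS and of GB and at or below 5.02 on the other 8 arrays, with 8.66 in GB replicate 2. The labels give no sex.

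The 54 collagen and laminin genes had both extremes on the same arrays as the receptor genes. Their median signal was 7.21, 7.04 and 7.16 in the GBS arrays, 7.13, 7.19 and 7.29 in GS, 7.22, 7.59 and 7.30 in GB, and 7.38, 7.30 and 7.45 in Control. GBS replicate 2 had the lowest median and GB replicate 2 the highest, for these genes and for the receptor genes alike, while the order of the arrays between them differed. GB replicate 2 held the highest of the 12 values for 47 of the 54 genes, and GBS replicate 2 the lowest for 34. The 7 genes whose highest value lay elsewhere were Lama2 and Lamb1 (GB replicate 3), Lama4 and Lamc1 (GBS replicate 3), Col11a1 (GBS replicate 2), Col12a1 (GS replicate 2) and Lamb2 (Control replicate 3). The spread within a genotype was widest in GB, where the median SD of the 54 genes was 0.23 (log2, n = 3), against 0.118 in GBS, 0.137 in GS and 0.096 in Control.

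**Figure D1:**
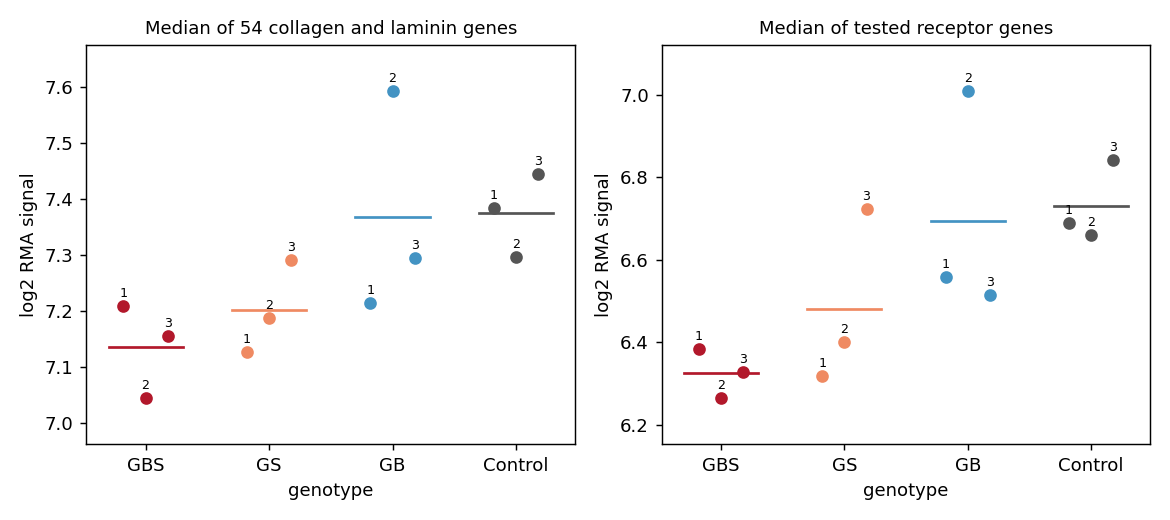
Median log2 RMA signal of the 54 collagen and laminin genes (left) and of the 208 tested receptor genes (right) on each array. Points are arrays numbered by replicate, and lines are the means of 3 arrays. GB replicate 2 is highest in both panels, at 7.59 and 7.01, and GBS replicate 2 is lowest, at 7.04 and 6.27.

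No collagen or laminin gene was called in GBS forebrain against Control, although most had a lower mean there. Limma called 0 of the 54 at an adjusted p under 0.05, where it called 15.3% of all 14195 tested genes, and the lowest adjusted p was 0.0724, for Col8a2. An unadjusted p under 0.05 was found for 19 of the 54, against 38.8% of all tested genes, and for 0 without Control replicate 3 and 35 without GB replicate 2. The mean was lower in GBS for 50 of the 54 genes, against 58.9% of all tested genes, and the median log2 change of the 54 was -0.25, against -0.10 for all tested genes, -0.37 for the tested receptor genes and -0.27 for all 1194 receptor genes. The changes were small, between -0.45 and 0.37 on the log2 scale, and all 54 of the 95% intervals lay within a 2-fold change in either direction, between -0.80 and 0.69. In this bulk tissue, fewer cells of a type and less RNA per cell cannot be told apart.

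Array by array, the 3 GBS values lay below all 3 Control values for 37 of the 54 genes (68.5%), against 35.7% of all tested genes, 178 of the 208 tested receptor genes (85.6%) and 831 of all 1194 receptor genes (69.6%). They lay above all Control values for 1 gene, Lamc1 (1.9%), against 28.8% of all tested genes and 2 of the 1194 receptor genes. With the median of all 1194 receptor genes on each array as a covariate, the median change of the 54 genes was 0.05 and 18 were negative, so the direction of the list turned. These medians were 4.84 to 4.92 on the GBS arrays and 5.12 to 5.23 on the Control arrays. They do not overlap, so that fit extends the covariate's slope across a gap between the groups. What part the dim-end signal plays in the collagen and laminin values was not tested beyond these values.

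Most calls appeared where GB replicate 2 was left out or carried less weight. Without it, limma called 21 of the 54 genes lower (38.9%, against 20.2% of all tested genes and 61.5% of the tested receptor genes) and Lamc1 higher (23.0% of all tested genes). With the GBS and Control arrays alone in the fit it called 22 lower (40.7%, against 21.8% of all and 73.6% of receptor genes) and Lamc1 higher (24.4% of all). With estimated array weights it called 30 lower (55.6%, against 29.1% of all and 77.9% of receptor genes) and Lamc1 higher (25.4% of all), and the weight of GB replicate 2 was 0.08. Without GB replicate 2, GS replicate 3 and Control replicate 3, which deviated together, it called 17 lower (31.5%, against 18.9% of all and 65.4% of receptor genes) and Lamc1 higher (23.5% of all). Those 3 arrays were picked from these data, where their deviations from the group means correlated at 0.739 to 0.833. GBS replicate 1, which was kept, correlated with them at 0.446 to 0.516. In each of these fits the share called lower among the 54 genes lay between those of all tested genes and of the tested receptor genes. The tested receptor genes carry the tilt of the filter, and no such share was computed over all 1194. With GB replicate 2 kept, leaving out GBS replicate 1 gave 1 call, Col8a2 lower (limma adjusted p = 0.0443). In that fit 455 of all 14195 tested genes were called lower.

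**Figure D2:**
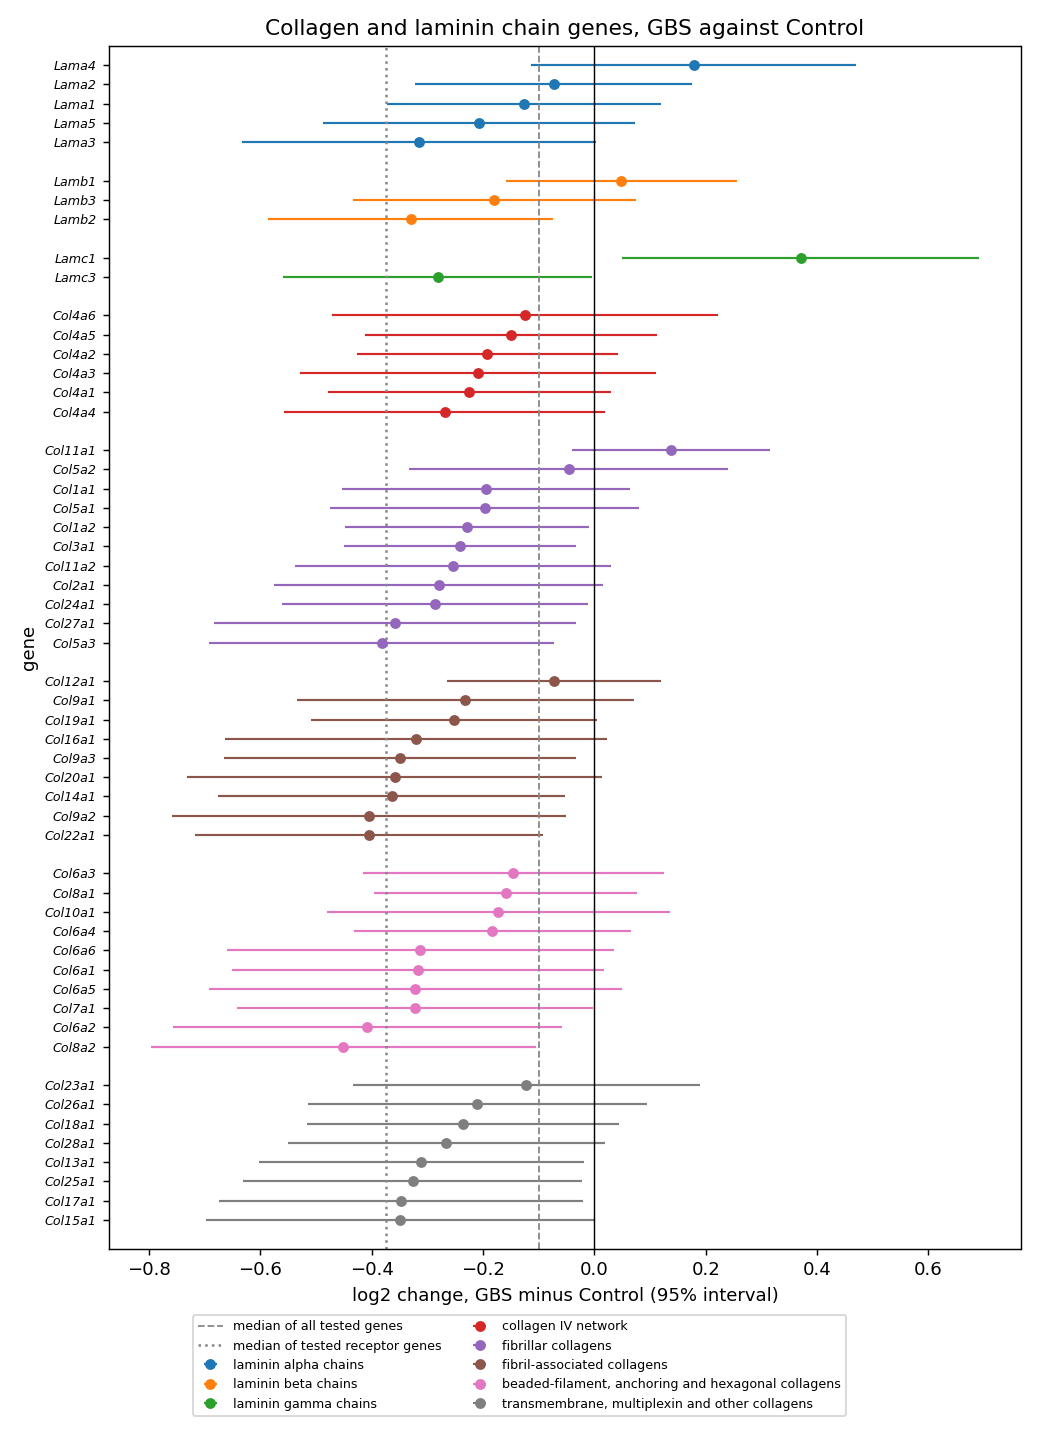
Log2 change in GBS against Control for each of the 54 genes, grouped by role, with 95% intervals from the limma fit (n = 3 arrays a group). The vertical lines mark 0, the median of all tested genes (-0.10, dashed) and that of tested receptor genes (-0.37, dotted). Lamc1, Lama4, Col11a1 and Lamb1 are the 4 points right of 0.

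Laminin chains held 3 of the 4 genes with a higher mean in GBS. Lamc1 encodes gamma 1, the gamma chain of most laminins. Its log2 signal was 7.23, 7.46 and 7.61 in GBS, 7.43, 7.35 and 7.09 in GS, 7.20, 7.01 and 7.52 in GB, and 7.08, 7.10 and 7.01 in Control. All 3 GBS arrays lay above all 3 Control arrays, while the GS and GB arrays spanned from Control level to GBS level. The log2 change in GBS against Control was 0.37 ± 0.15 (SE, limma adjusted p = 0.0962).

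Lamb1 encodes beta 1, a partner of gamma 1. Its log2 signal was 7.22, 7.36 and 7.34 in GBS, 7.38, 7.50 and 7.35 in GS, 7.45, 7.38 and 7.61 in GB, and 7.21, 7.38 and 7.19 in Control. The GBS arrays lay within the Control range, the GB arrays lay just above it, and the log2 change in GBS was 0.05 (95% interval -0.16 to 0.26, limma adjusted p = 0.680). Lama1 encodes alpha 1, a chain of early basement membranes that is also found under the meninges. Its log2 signal was 6.90, 6.62 and 6.74 in GBS, 6.72, 6.80 and 6.94 in GS, 6.92, 7.25 and 6.98 in GB, and 6.83, 6.94 and 6.86 in Control. GBS and Control overlapped, and the log2 change in GBS was -0.13 (95% interval -0.37 to 0.12, limma adjusted p = 0.372).

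Lama4, the alpha chain of vessel laminins, was chosen for its array values after these were seen, with 6.57, 6.86 and 6.89 in GBS and 6.62, 6.68 and 6.49 in Control. Its groups overlapped, and its log2 change was 0.18 (limma adjusted p = 0.294). Lamb2, the beta chain of muscle and vessel laminins, went the other way, with 7.14, 7.06 and 7.11 in GBS and 7.39, 7.34 and 7.57 in Control, also chosen after its values were seen. All its GBS arrays lay below the Control arrays, with a log2 change of -0.33 ± 0.12 (SE, limma adjusted p = 0.0740). The other laminin genes, Lama2, Lama3, Lama5, Lamb3 and Lamc3, had log2 changes of -0.07, -0.31, -0.21, -0.18 and -0.28, and none was called.

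All 6 collagen IV genes had a lower mean in GBS than in Control, with log2 changes of -0.27 to -0.12 and a median of -0.20, and none was called. Of all tested genes, 58.9% had a lower mean in GBS, and the median change of all 1194 receptor genes was -0.27. Col4a1 had log2 signals of 7.32, 7.26 and 7.17 in GBS, 7.25, 7.24 and 7.37 in GS, 7.44, 7.75 and 7.31 in GB, and 7.49, 7.38 and 7.56 in Control. Col4a2, which shares its promoter stretch, had 7.69, 7.54 and 7.56 in GBS, 7.59, 7.64 and 7.74 in GS, 7.77, 8.07 and 7.73 in GB, and 7.75, 7.72 and 7.90 in Control. For both genes the GBS arrays lay below the Control arrays and GB replicate 2 was highest, with log2 changes of -0.22 ± 0.12 and -0.19 ± 0.11 (SE, limma adjusted p = 0.161 and 0.185).

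Among the 11 fibrillar collagen genes the median log2 change was -0.24, against -0.27 for all 1194 receptor genes. Of the 11, 10 had a lower mean in GBS, against 58.9% of all tested genes. Col1a1 and Col1a2 encode the chains of collagen I, the main fibril of meninges, skin and bone. Col1a1 had log2 signals of 8.01, 7.83 and 7.98 in GBS, 7.84, 8.06 and 8.04 in GS, 8.18, 8.43 and 8.03 in GB, and 8.05, 8.09 and 8.26 in Control. Col1a2 had 7.76, 7.58 and 7.71 in GBS, 7.69, 7.82 and 7.78 in GS, 7.86, 8.13 and 7.87 in GB, and 7.91, 7.84 and 7.99 in Control. Both had GBS arrays below every Control array, with log2 changes of -0.19 ± 0.12 for Col1a1 and -0.23 ± 0.10 for Col1a2 (SE, limma adjusted p = 0.217 and 0.117).

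Col3a1, the chain of collagen III in soft tissue and vessel walls, had 7.16, 7.16 and 7.02 in GBS, 7.04, 7.16 and 7.18 in GS, 7.36, 7.54 and 7.26 in GB, and 7.38, 7.28 and 7.40 in Control. Its GBS and GS arrays lay below its GB and Control arrays without overlap, and the log2 change in GBS against Control was -0.24 ± 0.09 (SE, limma adjusted p = 0.0951). Col11a1, a chain of the thin collagen XI fibrils of cartilage, was the fibrillar gene with a higher mean in GBS, and its values were chosen after they were seen. It had 7.79, 7.79 and 7.66 in GBS, 7.43, 7.46 and 7.54 in GS, 7.70, 7.72 and 7.67 in GB, and 7.68, 7.52 and 7.63 in Control. The GS arrays were the low ones save for an overlap with 1 Control array, and the log2 change in GBS against Control was 0.14 ± 0.08 (SE, limma adjusted p = 0.206).

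All 9 fibril-associated collagen genes had a lower mean in GBS (median log2 change -0.35), as did all 10 of the beaded-filament, anchoring and hexagonal group (median -0.32) and all 8 of the transmembrane, multiplexin and other group (median -0.29). The share of all tested genes with a lower mean was 58.9%. The median change was -0.37 for the tested receptor genes and -0.27 for all 1194 receptor genes. The lowest change of the 54 was that of Col8a2, a collagen of hexagonal lattices known from the cornea, at -0.45 ± 0.16 (SE, limma adjusted p = 0.0724). Col6a2, a chain of the beaded filaments of collagen VI, and Col22a1, a collagen of tissue junctions, had log2 changes of -0.41 ± 0.16 and -0.40 ± 0.14 (SE, limma adjusted p = 0.0941 and 0.0733). Col12a1, which coats collagen I fibrils, stood nearest to 0 in the fibril-associated group at -0.07. Col6a5 and Col6a6 each had a second, dimmer probe set, with a GBS mean 0.18 and 0.13 below the Control mean, against 0.32 and 0.31 on the probe sets used.

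**Figure D3:**
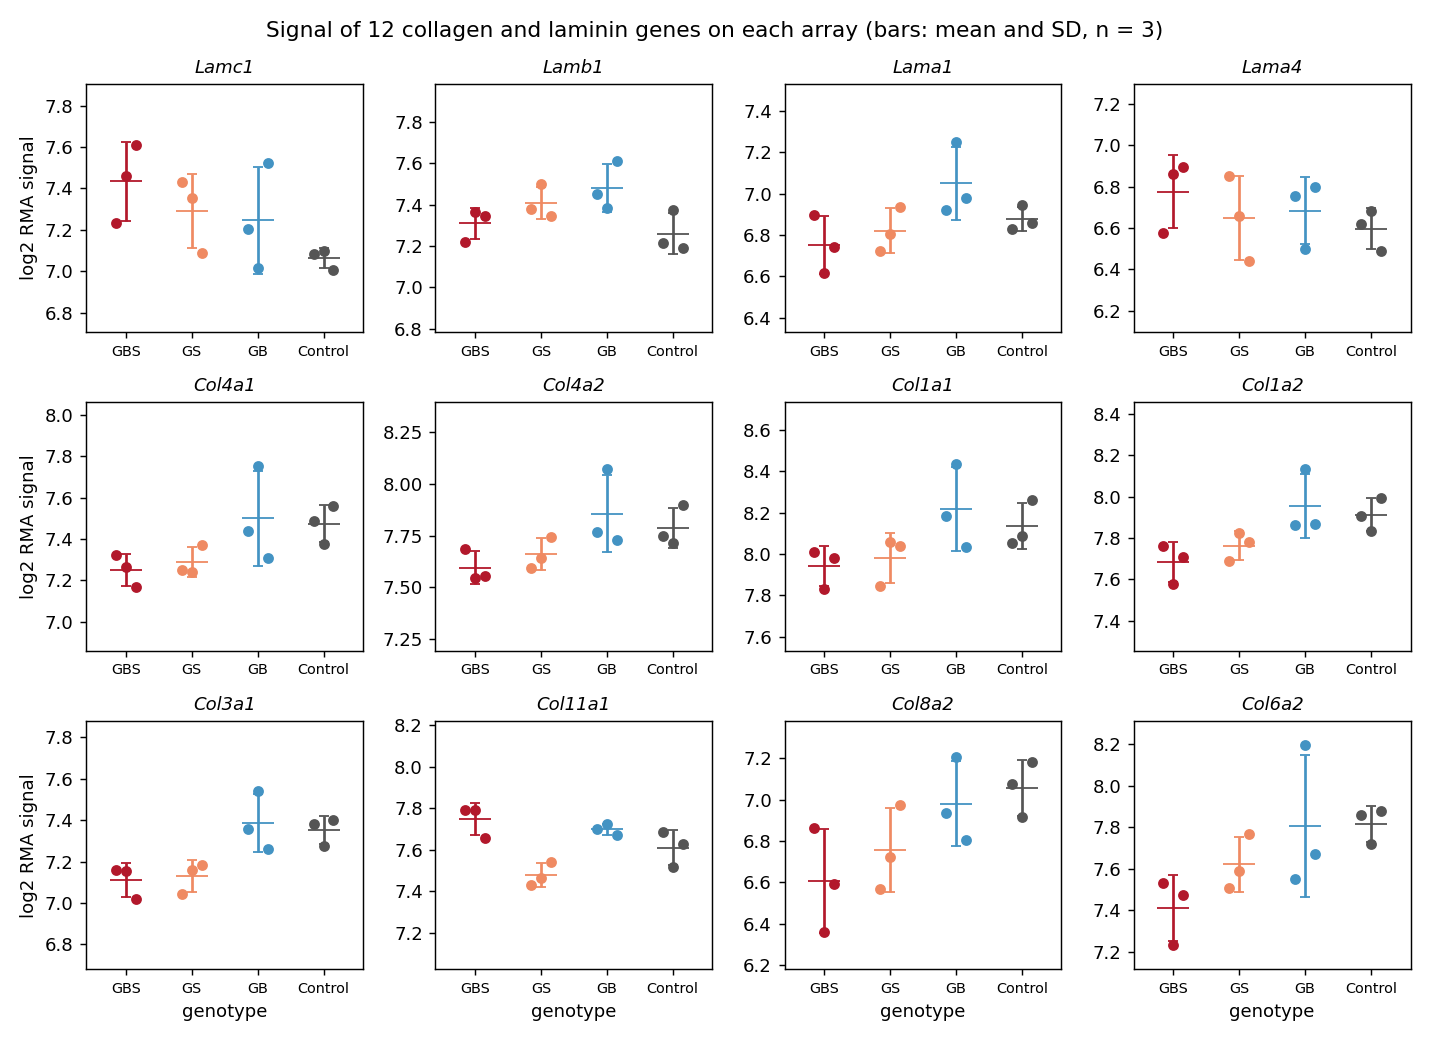
Log2 RMA signal of 12 genes on every array, with each panel spanning 1.2 log2 units. Points are single arrays and bars are the mean and SD of 3. Lamc1 is higher in all GBS arrays than in all Control arrays, while Col4a1, Col1a1, Col1a2, Col3a1, Col6a2 and Col8a2 are lower. GB replicate 2 is the high outlying point in most collagen panels.

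In GS forebrain against Control, limma called 0 of the 54 genes, where it called 0.0211% of all tested genes, and 1 of the 54 had an unadjusted p under 0.05, against 5.91% of all tested genes. That count was 17 without GB replicate 2 and 13 without GS replicate 3. The mean was lower in GS for 49 of the 54, against 53.6% of all tested genes. The median log2 change was -0.18, against -0.02 for all tested genes, -0.22 for the tested receptor genes and -0.16 for all 1194 receptor genes. With the receptor covariate it was -0.04, and 41 of the 54 changes were negative. The GS arrays lay below all Control arrays for 12 genes (22.2%), against 9.43% of all tested genes, 19.2% of tested receptor genes and 15.9% of all 1194. They lay above all Control arrays for 1, Col12a1, against 8.09% of all tested genes. Col12a1 was above the 40th percentile on 3 of the 12 arrays, the fewest that pass the filter. Lamc1 and Lamb1 had log2 changes of 0.23 and 0.15 in GS (limma adjusted p = 0.645 for both). Estimated array weights gave 41 genes called lower (75.9%, against 28.8% of all tested genes and 74.5% of receptor genes) and 3 higher (5.6%, against 29.6% of all). In that fit GS replicate 2 had a weight of 10.89 and the other 11 arrays weights of 0.08 to 2.77, so these calls rested largely on 1 array.

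In GB forebrain against Control, limma called 0 of the 54 genes and 0.0% of all tested genes, and 1 of the 54 and 156 of all tested genes had an unadjusted p under 0.05. The median log2 change of the 54 was 0.02, against 0.00 for all tested genes and -0.02 for the tested and for all 1194 receptor genes. The change was negative for 19 of the 54, against 49.2% of all tested genes. Without GB replicate 2 the median was -0.11 and 46 were negative. It was also below 0 without Control replicate 2 (-0.03, 34 negative), with Xist as a covariate (-0.10, 46 negative), with array weights (-0.09, 44 negative) and without the 3 arrays that deviated together (-0.06, 42 negative), so the list had no settled direction in GB. The GB arrays lay above all Control arrays for 1 gene, Lamb1, against 3.01% of all tested genes, and below them for 0 genes, against 1.09%. Lamb1 had a log2 change of 0.22 ± 0.09 in GB, and Lama1 and Lama2 had 0.17 ± 0.11 and 0.18 ± 0.11 (SE, limma adjusted p = 1.0 for each). These 3 comparisons share the Control arrays.

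**Figure D4:**
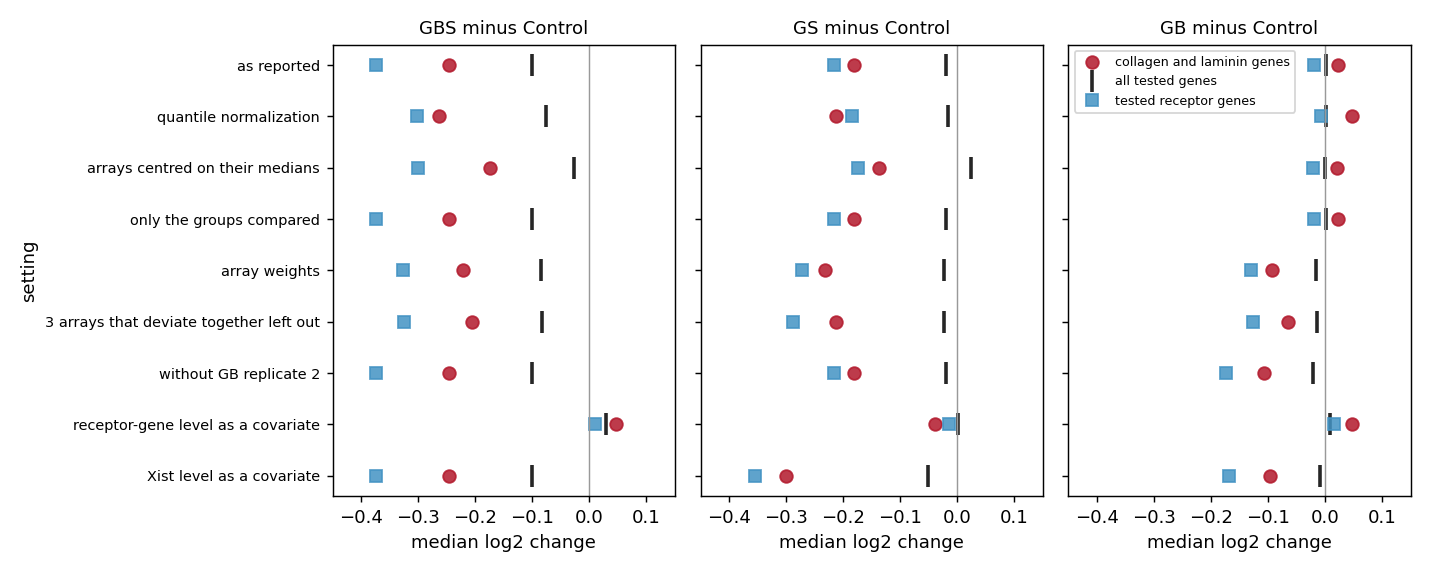
Median log2 change of the 54 collagen and laminin genes, of all tested genes and of the tested receptor genes, in each Cre genotype against Control and under 9 settings. In GBS the list lies between all tested genes and the tested receptor genes in each row except that of the receptor covariate. The receptor genes shown are only those that passed the filter on dim probe sets. With the receptor covariate its GBS median is 0.05, and without GB replicate 2 its GB median is -0.11.

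Between GBS and GS, limma called 0 of the 54 genes and 5.07% of all tested genes, and 2 of the 54 had an unadjusted p under 0.05, against 18.6% of all tested genes. The median log2 change was -0.07, against -0.03 for all tested genes, -0.15 for the tested receptor genes and -0.12 for all 1194. It was -0.002 without GS replicate 3 and -0.02 without GBS replicate 2, against -0.12 without GBS replicate 1 or GS replicate 1. With Xist as a covariate it was 0.04, and with the receptor covariate 0.07. The GBS arrays lay above all GS arrays for 1 gene, Col11a1, against 16.5% of all tested genes, and below them for 3, against 12.4%. Col11a1 had a mean of 7.75 ± 0.08 in GBS and 7.48 ± 0.06 in GS (SD, n = 3 each), a log2 change of 0.27 ± 0.08 (SE, limma adjusted p = 0.0896). It passed the threshold with centred arrays, with array weights, with the receptor covariate and without the 3 arrays that deviated together, at adjusted p of 0.0056 to 0.0406. In the other settings the adjusted p was 0.0516 to 0.315, highest with quantile normalization. Col12a1 had a mean of 6.10 ± 0.08 in GBS and 6.33 ± 0.07 in GS (SD, n = 3 each), a log2 change of -0.23 ± 0.09 (SE, limma adjusted p = 0.174). This gene only just passed the filter, above the 40th percentile on 3 of the 12 arrays.

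Between GBS and GB, limma called 0 of the 54 genes and 12.7% of all tested genes, and 22 of the 54 had an unadjusted p under 0.05, against 41.8% of all tested genes. That count was 2 without GBS replicate 2, 2 without GB replicate 2 and 4 without GBS replicate 3. The mean was lower in GBS for 51 of the 54, against 59.5% of all tested genes. The median log2 change was -0.28, against -0.11 for all tested genes, -0.34 for the tested receptor genes and -0.25 for all 1194. The GBS arrays lay below all GB arrays for 24 genes (44.4%), against 23.7% of all tested genes, 58.2% of tested receptor genes and 47.2% of all 1194, and above them for 0, against 24.2% of all tested genes. The lowest adjusted p belonged to Col3a1, with a log2 change of -0.28 ± 0.09 (SE, limma adjusted p = 0.0695), and Lama1 had -0.30 ± 0.11 (SE, limma adjusted p = 0.0823). Without GB replicate 2 the median of the 54 was -0.15. With the receptor covariate it was -0.003, and 28 of the 54 changes were negative. The interaction, which asks whether the difference of GBS from GS is unlike that of GB from Control, gave 0 calls among the 54 and 0.331% of all tested genes, with 2 of the 54 at an unadjusted p under 0.05, against 8.16% of all tested genes. Those 2 were Col12a1 at -0.34 ± 0.12 and Lamb1 at -0.32 ± 0.13 (SE, limma adjusted p = 0.470 and 0.573). Col12a1 is the dim gene that lay above the 40th percentile on 3 arrays.

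Genes that modify, carry or trim collagen chains included some with far larger changes in GBS than any chain. The list holds 32 such genes, of which 24 were tested, and 5 rose and 1 fell in GBS against Control, with a median log2 change of 0.03. Over all 14195 tested genes, limma called 1556 higher and 617 lower. Tll1, a protease that removes the carboxyl end of procollagen, rose to a mean of 8.12 ± 0.22 in GBS, against 6.10 ± 0.24 in Control (SD, n = 3 each; log2 change 2.02, limma adjusted p = 1.704e-05). Plod2, which hydroxylates lysines for cross-links, rose to 8.68 ± 0.38 in GBS, against 5.82 ± 0.22 in Control (log2 change 2.86, limma adjusted p = 0.000154). P4hb, a subunit of the prolyl hydroxylase that stabilises the triple helix, rose by 1.12 on the log2 scale (limma adjusted p = 0.00267). These 3 calls held under every setting tried. The Control means of Tll1 and Plod2 lay below the 40th percentile of every array (6.18 to 6.4). Both could thus pass the filter through the GBS arrays, where they were high. Mia3, which loads collagen for export from the endoplasmic reticulum, and P4ha1, the catalytic subunit that pairs with P4hb, rose by 0.55 and 0.97, and Adamts3, which trims the amino end of procollagen, fell by 0.55 (limma adjusted p = 0.0128, 0.0203 and 0.0150). P4ha1 was named after its values were seen. The last 3 calls were lost without single arrays: Mia3 without GBS replicate 2 or Control replicate 1 or 3, P4ha1 without any 1 of the Control arrays, and Adamts3 without GBS replicate 2 or Control replicate 1 or 2, at adjusted p up to 0.0592, 0.0662 and 0.0570.

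The same list had 0 limma calls in GS and in GB against Control, where 2 and 1 of the 24 genes had an unadjusted p under 0.05, against 5.91% and 1.10% of all tested genes. Against GS, P4hb, Plod2, Tll1 and P3h2 rose in GBS and P4ha3 and Adamts3 fell, and against GB, P4ha1, P4hb, Plod2, Mia3 and Tll1 rose. Of all 14195 tested genes, 505 rose and 215 fell against GS, and 1363 rose and 443 fell against GB. In the interaction 1 of the 24 passed the threshold, Tll1, in the positive direction, against 0.331% of all tested genes. P3h2 and P4ha3, prolyl hydroxylases, were named after their values were seen.

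Other basement membrane genes (21 listed, 21 tested) had a median log2 change of -0.08 in GBS against Control. Limma called 3 higher and 0 lower, against 1556 and 617 of all 14195 tested genes. Hmcn1, a large protein of cell and matrix attachments, rose by 2.97 on the log2 scale, Frem1, which links epithelia to basement membranes, by 0.60, and Fbln1, a binder of laminin and fibronectin, by 0.46 (limma adjusted p = 0.0144, 0.0232 and 0.0166). Each of the 3 calls was lost without GBS replicate 2 and without 2 of the Control arrays, at adjusted p up to 0.0623, 0.0839 and 0.0637. In the other comparisons the list had 1 call, Tinagl1, which was lower in GBS than in GB and was named after its values were seen. Between GBS and GB, 12.7% of all tested genes were called.

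Receptors for collagen and laminin (31 listed, 27 tested) had a median log2 change of -0.01, with 5 that rose and 1 that fell in GBS against Control, against 1556 and 617 of all 14195 tested genes. Cd44, a receptor for hyaluronan and collagen, rose by 0.83 and Itgav, an integrin alpha chain that binds fibronectin and vitronectin, by 0.66 on the log2 scale (limma adjusted p = 0.00211 and 0.00534), and both calls held whichever array was left out. Itga1, a collagen-binding integrin chain, rose by 0.76, Ilk, a kinase-like partner of integrins, by 0.73, and Itgb1, their shared beta chain, by 1.22 (limma adjusted p = 0.00952, 0.0208 and 0.0225), and Itgb1 was named after its values were seen. Itga7, a laminin-binding chain, fell by 0.41 (limma adjusted p = 0.0469). For comparison, the median change was -0.37 for the tested olfactory and vomeronasal receptor genes and -0.27 for all 1194 of them. The Itga1 call was lost without GBS replicate 2 (adjusted p = 0.0501), those of Ilk and Itgb1 without any 1 of GBS replicates 2 and 3 and Control replicates 1 and 3, and that of Itga7 without any 1 of 9 arrays, at adjusted p up to 0.0918, 0.102 and 0.188. The Control mean of Itga1, 6.03, lay below the 40th percentile of every array (6.18 to 6.4). Itga1 could thus pass the filter through the GBS arrays, where it was high.

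Matrix proteases and their inhibitors (23 tested) had 4 genes that rose and 4 that fell in GBS, against 1556 and 617 of all 14195 tested genes, with a median log2 change of -0.15. Adamts19, a metalloprotease, rose by 3.20 on the log2 scale, Reck, a membrane-bound inhibitor of metalloproteases, by 1.51, Plat, the tissue plasminogen activator, by 0.84, and Mmp14, a membrane-bound collagenase, by 0.72 (limma adjusted p = 3.512e-05, 0.000862, 0.00321 and 0.00735). These 4 calls held whichever array was left out. Timp2, an inhibitor of metalloproteases, fell by 0.73, and the metalloproteases Mmp24, Mmp3 and Mmp11 fell by 0.37, 0.35 and 0.34 (limma adjusted p = 0.0338, 0.0352, 0.0328 and 0.0281). Each of these 4 was lost without any 1 of 5 to 7 single arrays, GBS replicate 2 and Control replicates 1, 2 and 3 among them, with adjusted p up to 0.154, 0.144, 0.121 and 0.120. The GBS mean of Mmp3, 6.05, lay below the 40th percentile of every array (6.18 to 6.4). The tested olfactory and vomeronasal receptor genes had a median change of -0.37, and all 1194 of them -0.27.

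**Figure D5:**
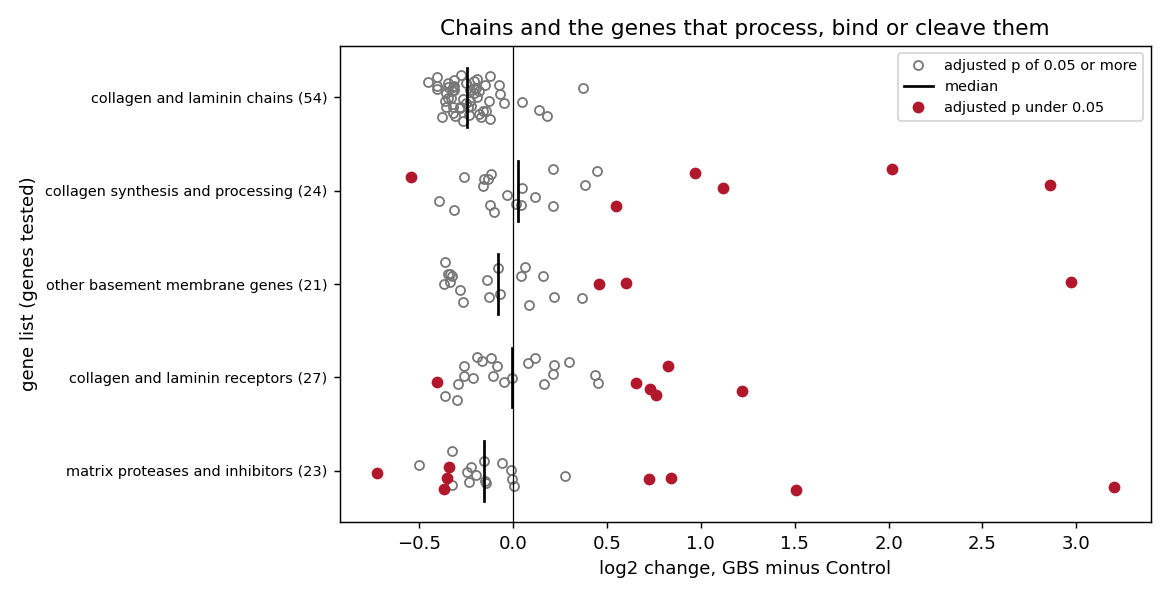
Log2 change in GBS against Control of the 54 chain genes and of the tested genes of 4 related lists. Each point is a gene, filled where the limma adjusted p is under 0.05, and black bars are list medians. The chains span -0.45 to 0.37 with no filled point, while Adamts19, Hmcn1, Plod2 and Tll1 lie above 2 log2 units.

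Cell types that make collagen and laminin were followed by marker lists, whose part in the values above was not tested. Of 18 markers of meninges and fibroblasts 12 were tested, and 1 rose and 2 fell in GBS against Control, with a median log2 change of -0.20. Over all 14195 tested genes, limma called 1556 higher and 617 lower, with a median of -0.10. Dcn, a small proteoglycan of collagen fibrils, rose by 3.79 on the log2 scale (limma adjusted p = 0.000354), and Foxc2 and Fmod fell by 0.30 and 0.41 (limma adjusted p = 0.0216 and 0.0250). The GBS means of Foxc2 and Fmod, 5.98 and 6.07, lay below the 40th percentile of every array (6.18 to 6.4). The tested olfactory and vomeronasal receptor genes had a median change of -0.37, and all 1194 such genes -0.27. The Foxc2 call was lost without any 1 of the 6 GBS and Control arrays and that of Fmod without any 1 of the same arrays except GBS replicate 1, at adjusted p up to 0.0800 and 0.111. The mean over the 12 tested markers was 6.80 to 7.01 in GBS, 6.65 to 7.0 in GS, 6.92 to 7.10 in GB and 6.61 to 6.92 in Control. That mean includes the large rise of Dcn, while the median change was below 0.

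Of 15 endothelial markers 12 were tested, and 1, Emcn, rose in GBS (log2 change 0.89, limma adjusted p = 0.0112, lost without GBS replicate 2 or Control replicate 1 at up to 0.0582). Its Control mean, 5.90, lay below the 40th percentile of every array (6.18 to 6.4). It could thus pass the filter through the GBS arrays, where it was high. For this and the next lists the background is 1556 genes called higher and 617 lower of all 14195 tested. The median log2 change of the 12 was -0.18. Their mean was 6.72 to 6.77 in GBS, 6.74 to 6.83 in GS, 6.83 to 6.93 in GB and 6.71 to 6.82 in Control. Of 14 markers of pericytes and smooth muscle, all tested, 1 rose in GBS, Abcc9 (log2 change 0.50, limma adjusted p = 0.00798), and the median log2 change was -0.18. The mean of these markers was 6.68 to 6.71 in GBS, 6.73 to 6.77 in GS, 6.76 to 6.94 in GB and 6.71 to 6.78 in Control. Of 14 markers of cartilage and bone 8 were tested and Ibsp rose (log2 change 0.68, limma adjusted p = 0.0177, lost without any 1 of 5 arrays, GBS replicates 1 and 2 and the 3 Control arrays, at up to 0.0710). The Control mean of Ibsp, 5.97, also lay below the 40th percentile of every array. Such a gene can pass the filter through the GBS arrays where it is high, which favours rises. The 8 had a median log2 change of -0.17 in GBS against Control, with a mean of 6.43 to 6.60 in GBS, 6.33 to 6.58 in GS, 6.46 to 6.86 in GB and 6.52 to 6.67 in Control. Of 10 choroid plexus markers 8 were tested, and limma called 2 higher, Clic6 and Sostdc1, and 0 lower, while the median log2 change was -0.24. Changes in this list ran from -1.53 to 2.38, and the marker at -1.53 was not called. An unadjusted p under 0.05 was found for 5 of the 8, against 38.8% of all tested genes. How the 2 calls held without single arrays is not given. The mean of the 8 was 6.88 to 7.27 in GBS, 6.57 to 7.03 in GS, 6.59 to 7.30 in GB and 6.55 to 7.32 in Control. Of the tested markers of radial glia 6 of 10 rose and 1 fell, and of those of neurons 0 rose and 4 of 12 fell. Of all 14195 tested genes, 1556 rose and 617 fell. The median log2 changes of the radial glia and neuron markers were 0.90 and -0.71. Limma called 0 of the 6 tested markers of skeletal muscle, 0 of 5 of epidermis, 0 of 5 of microglia and 0 of 2 of erythroid cells, with 1 in each list at an unadjusted p under 0.05, against 38.8% of all tested genes. The median log2 changes of these lists were -0.22, -0.21, -0.26 and 0.035. The RMA scale has no zero, so absence of a cell type cannot be read from these levels.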

How the data were processed

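Total RNA from 12 newborn forebrains was hybridised to Affymetrix arrays. The deposited values are log2 signals, which per the submitters' processing notes the authors made by RMA with Affymetrix Expression Console. Not given in the sources used here was the genome build, and the number of arrays limits the precision. Of 35556 probe sets, 23410 were listed in GEO's platform annotation, 21789 with 1 symbol, and 21698 of these were found in RefSeq. Probe sets with several symbols were left out.

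The 4 genotype means were fitted together on the 12 arrays, using limma 3.58.1 in R 4.3.3 (lmFit and eBayes, 8 residual and 2.9 prior degrees of freedom). P-values were two-sided and adjusted by Benjamini-Hochberg over all 14195 tested genes, with a threshold of 0.05. Every adjusted p is from limma. Errors beside changes are standard errors, and beside means standard deviations. Intervals of 95% are not adjusted for the number of genes. The fit was tested on simulated data.

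The members and the role, pathway and marker lists were chosen with earlier results of these data known, as was the rule for naming genes: any member by its level, array values for Lama1, Lamb1, Lamc1, Col4a1, Col4a2, Col1a1, Col1a2 and Col3a1 and for called members, and from each other list up to 4 genes with the lowest adjusted p in GBS against Control plus those called against the majority. Equal replicate numbers across genotypes did not pair the arrays: over 18 same-numbered pairs the deviations from the group means correlated from -0.818 to 0.739, 7 of them over 0.1. Alternatives were other filters, normalizations, variance models, samples and covariates, and leaving out each array.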

Additional observations from a re-analysis of the deposited data

How the results depend on the processing

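Across the 6 comparisons, the count of collagen and laminin genes called stayed at 0 with no filter, with the 60th percentile as filter, with probe sets of a gene averaged, and with quantile normalization, limma's trend and robust settings, an adjusted p under 0.01, a 2-fold limit and Xist as a covariate. The fit with a replicate block, whose pairing the data do not bear out (4 of 12 arrays correlated best with their own number), also gave 0 calls among these genes, as without it.

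In GBS against Control, array weights, only the groups compared, and leaving out 3 arrays that deviate together gave 1 gene higher each and 30, 22 and 17 lower, and leaving out single arrays gave 0 to 1 higher and 0 to 21 lower (21 without GB replicate 2, 1 without GBS replicate 1). In GS against Control, array weights gave 3 higher and 41 lower, and leaving out the 3 arrays gave 1 lower. Between GBS and GS, 1 gene was higher with centred arrays, array weights, the receptor covariate and the 3 arrays left out, and 1 lower with array weights. Between GBS and GB, 1 was lower with array weights, and leaving out single arrays gave 0 to 1 (1 without GB replicate 3). The interaction gave 1 lower with array weights. The causes were not tested, and the weight estimate stopped before reaching its tolerance. The interaction needs all groups, so it has no value from only the groups compared.

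The receptor covariate turned the sign of 8 of the log2 changes of genes named in the text. In GBS against Control it gave 0.0909 for Lama1, -0.0820 for Lamb1, 0.0192 for Col4a1, 0.0349 for Col4a2, 0.0398 for Col1a1, -0.1317 for Lama4 and -0.0302 for Rgs5, a pericyte marker at 0.71 without it. Between GBS and GS it gave -0.0174 for Lamc1, against 0.14 without it. None of these passed the threshold in either fit. The covariate moved the median of the 54 genes between GBS and GB from -0.28 to -0.003, with 28 negative. In GS against Control it moved the median from -0.18 to -0.04, with 41 negative. It turned the sign of the median of the 54 genes in GBS against Control (0.05), between GBS and GS (0.07) and in the interaction (0.05). The last was also above 0 without GB replicate 2 (0.05), without the 3 arrays (0.09), with array weights (0.11) and with Xist as a covariate (0.16). Of the 29 called genes named from the other lists it ended the call of 14 (Mia3, P4ha1, Hmcn1, Frem1, Itga1, Ilk, Itgb1, Itga7, Mmp11, Mmp3, Mmp24, Foxc2, Fmod and Emcn), quantile normalization that of 4 (Itgb1, Itga7, Mmp3 and Foxc2), the replicate block that of 8 and centring that of 2 (Timp2 and Mmp24).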
